A study of Mus with 4 samples.

Results

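Tropomyosins are rod-shaped coiled-coil proteins that polymerise head to tail along actin filaments and control which other proteins, such as myosin motors and severing factors, can act on them. In endothelial cells they belong to the stress fibres and the cortical actin, and in liver sinusoidal endothelial cells (LSECs) actin filaments also surround the fenestrae, the pores of the sinusoid wall. Their genes each give several proteins through alternative promoters and splicing. Tropomyosin messenger RNAs have also been copied back into the genome as retrocopies, many of which are pseudogenes. A retrocopy resembles the spliced messenger of its parent, so that short reads of parent and copy can be hard to tell apart.

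The rows described here are 5 of the 54532 Ensembl gene rows in the deposited count table, Tpm1, Tpm2, Tpm3, Tpm4 and Tpm3-rs7, taken by identifier. They were chosen because the Tpm3-related row was about 6-fold higher in the knockout, so every difference between the genotypes in them is given as a description. Calls from the test over the whole table are counted for these rows, beside the share of all genes called, and support nothing about them. The libraries came from LSECs of mice given the liver toxin CCl4, carbon tetrachloride. The knockout libraries, called KO1 and KO3, were from mice lacking Pofut1 (P1KO), whose product adds fucose to EGF-like repeats, such as those of Notch receptors. The control libraries, called CTL1 and CTL2, were from mice labelled CTL that received CCl4 as well. The series title places the deletion in the endothelium and the series asks how POFUT1 acts on LSECs and stellate cells. The labels used here give no Cre driver, strain, age, sex or toxin dose, and they do not say if the 2 libraries in a group were taken from different animals. The values of spread below are those between 2 libraries per group and may be technical. The labels give liver and LSECs, but the extraction protocol names heart ventricles. Markers of LSECs or of other cell types were not analysed here, since the identifiers in the table could not be paired with symbols.

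Between 17464769 and 17918834 reads were counted per library. After removal of low counts 15510 genes were tested, and all 5 tropomyosin rows were among them. The P1KO libraries lay farther apart than the CTL libraries. The median absolute difference over the tested genes was 0.15 on the log2 scale between KO3 and KO1, against 0.10 between CTL2 and CTL1. The median log2 fold change of P1KO over CTL was -0.01 over all tested genes. In bulk RNA, more cells of a type and more RNA per cell cannot be told apart.

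In the RefSeq gene table for GRCm38.p6, the mouse build also known as mm10, Tpm3 (ENSMUSG00000027940) lies at chr3:90072651-90100902. It spans 28252 bases, is protein-coding and has 7 curated transcripts. Tpm3-rs7 (ENSMUSG00000058126), whose symbol stands for a Tpm3-related sequence, lies at chr14:113314601-113316720. It is listed there as a pseudogene of 2120 bases with no transcript accession. The table places 0 other genes over it, and its nearest listed neighbours are the pseudogenes Gm4486, 354986 bases before it, and Gm5209, 584286 bases after it. The nearest protein-coding gene, Slitrk5, is 1631457 bases away. The table lists 3 Tpm-related sequences, of which Tpm3-rs2 on chromosome 4 and Tpm3-rs3 on chromosome 6 are also pseudogenes. Their rows in the count table were not identified, so reads that fell on them are not analysed here. The other tropomyosin genes are protein-coding, with Tpm1 (ENSMUSG00000032366) at chr9:67022590-67049672, Tpm2 (ENSMUSG00000028464) at chr4:43513726-43523583 and Tpm4 (ENSMUSG00000031799) at chr8:72135288-72153142. RefSeq curates 10 transcripts for Tpm1, 3 for Tpm2 and 1 for Tpm4. Levels below are CPM, counts per 1000000 counted reads after TMM scaling, not divided by length, so they compare libraries within a gene and not genes with each other.

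In P1KO LSECs the counts of Tpm3-rs7 were about 6-fold higher and those of Tpm3 about 2-fold lower than in CTL, while the sum of both rows was nearly level. Tpm1 was slightly higher, Tpm4 was near its control level, and the scarce Tpm2 was lower. By edgeR's quasi-likelihood test with Benjamini-Hochberg adjustment at 0.05, 3 of the 5 rows were called. Tpm1 and Tpm3-rs7 were called higher, and Tpm3 lower. Of all tested genes 19.5% were called, 9.68% higher and 9.84% lower in P1KO. The groups did not overlap for 4 of the 5 rows, Tpm4 being the exception, against 62.6% of all tested genes. Since the rows were chosen on this comparison, these counts carry no weight as evidence. The number of calls depended on single libraries over the whole table, and these rows followed it. Without CTL1, where 0.832% of all tested genes were called, and without CTL2, where 0.774% were, Tpm3-rs7 was the 1 row of the 5 that was called. Without KO1, 5 rows and 34.8% of all tested genes were called, and without KO3, 4 rows and 33.6%.

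**Figure D1:**
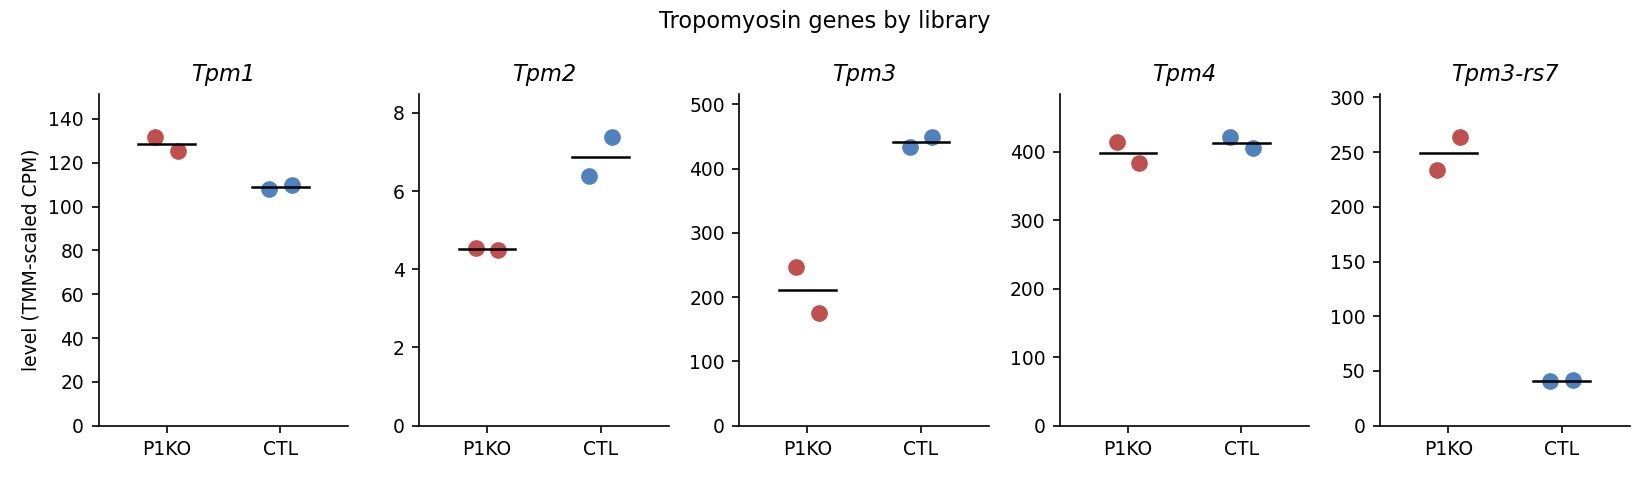
Level of each tropomyosin row in TMM-scaled CPM, with each panel on its own axis from 0. Points are libraries, P1KO on the left in red and CTL on the right in blue, and lines are group means. Tpm3-rs7 averaged 249 CPM in P1KO and 41.2 CPM in CTL, Tpm3 averaged 211 CPM in P1KO and 442 CPM in CTL, and only for Tpm4 did the groups overlap.

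Tpm3-rs7 had 4112 reads in KO1 and 4700 in KO3, against 718 in CTL1 and 743 in CTL2. Both P1KO libraries were far above both CTL libraries, and the CTL libraries were almost equal. Its level was 249 ± 21.5 CPM in P1KO and 41.2 ± 0.500 CPM in CTL (SD, n = 2 each). The log2 fold change of P1KO over CTL was 2.59 ± 0.08 (SE), or 6.03-fold. Over the 4 possible pairs of a P1KO with a CTL library the ratio ran from 5.62 to 6.46. In order of fold change Tpm3-rs7 stood at position 44 from the top among the 15510 tested genes. Among the 2425 genes with at least 100 CPM in the higher group, 6 had a fold change at least as high, Tpm3-rs7 included. Tpm3-rs7 reached 100 CPM only in P1KO and was chosen for this rise. Its place in either order is thus a description and no evidence. How reads of near-identical genes were counted is not given in the sources used here, so its count, and that of Tpm3, are uncertain.

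Tpm3 encodes tropomyosin proteins found in slow skeletal muscle and, as shorter forms, in the cytoskeleton of most other cells. It had 4350 reads in KO1 and 3126 in KO3, against 7630 in CTL1 and 8031 in CTL2. Both P1KO libraries were below both CTL libraries, and KO3 was clearly lower than KO1. Its level was 211 ± 50.6 CPM in P1KO and 442 ± 10.7 CPM in CTL (SD, n = 2 each), which gave a log2 change of -1.06 ± 0.14 (SE). The ratio of a P1KO to a CTL library ran from 0.391 to 0.569. Without CTL1 or CTL2 the row was not called, while its log2 fold change stayed at -1.09 and -1.05. It was -1.33 without KO1 and -0.84 without KO3. Among the 2425 genes with at least 100 CPM in the higher group, 42 had a fold change as low or lower, Tpm3 included.

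The reads of Tpm3 and Tpm3-rs7 together numbered 8462 in KO1 and 7826 in KO3, against 8348 in CTL1 and 8774 in CTL2. KO1 lay between the CTL libraries and KO3 below them, so the groups overlapped. The summed level was 460 ± 29.1 CPM in P1KO and 483 ± 11.2 CPM in CTL (SD, n = 2 each). In P1KO the level of Tpm3-rs7 was 208 CPM above that in CTL, and that of Tpm3 fell by 231 CPM, so the net difference was -23.1 CPM. When the reads of both rows were added before the fit, the log2 fold change of the sum was -0.065 ± 0.056 (SE), in place of 2.59 and -1.06 for the separate rows. The counts of both rows thus differed between the groups in opposite directions by similar amounts, and their sum differed much less. Whether reads of 1 locus were assigned to the other was not tested, since the reads and the sequences of both loci were not used here.

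**Figure D2:**
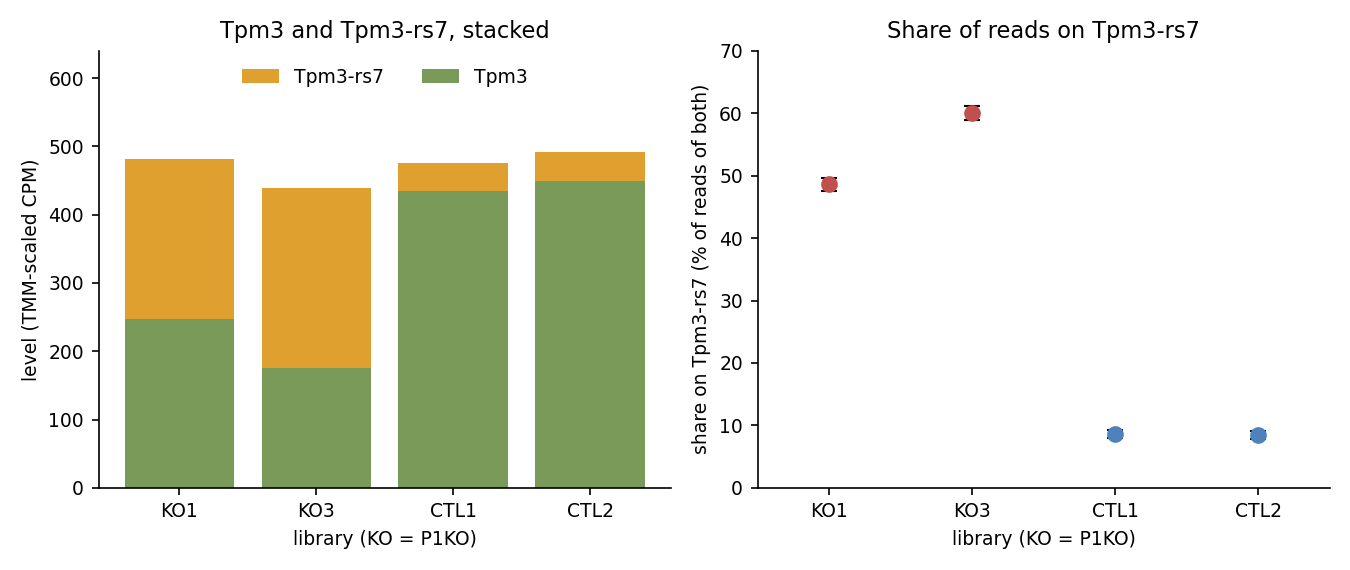
Left, levels of Tpm3 (green) and Tpm3-rs7 (orange) stacked, in TMM-scaled CPM, for each library. Right, the share of the reads of both rows that was counted on Tpm3-rs7, in percent, with P1KO in red, CTL in blue and bars for exact 95% binomial intervals. The stacked sums lie between 440 and 491 CPM, while the share is 48.6% and 60.1% in the P1KO libraries and 8.60% and 8.47% in the CTL libraries.

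Of the reads on either row, Tpm3-rs7 took 48.6% in KO1 (exact 95% binomial interval 47.5% to 49.7%) and 60.1% in KO3 (59.0% to 61.1%). In CTL1 it took 8.60% (8.01% to 9.22%), and in CTL2 8.47% (7.89% to 9.07%). These intervals cover counting error only. The intervals of the CTL libraries overlapped, and those of the P1KO libraries did not, so the knockout libraries differed from each other by more than counting error. The mean share was 54.3% ± 8.11 in P1KO and 8.53% ± 0.0938 in CTL (SD, n = 2 each), a difference of 45.8 percentage points. For every 100 reads on Tpm3 there were 94.5 on Tpm3-rs7 in KO1 and 150 in KO3, against 9.41 in CTL1 and 9.25 in CTL2.

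The P1KO libraries also differed from each other in opposite directions for the parent and the related sequence. This comparison lies within 1 genotype and was not used to choose the rows, but it sets 1 library against 1 other and was not tested. On the log2 scale, KO3 minus KO1 was -0.49 for Tpm3 and 0.18 for Tpm3-rs7. In CPM, KO3 minus KO1 was -71.5 for Tpm3 and 30.4 for Tpm3-rs7, and it was -41.1 for their sum, so the difference was smaller for Tpm3-rs7 than for Tpm3. A difference between KO3 and KO1 at least as large as that of Tpm3 was seen in 15.7% of the tested genes, and in 2.56% of the genes with at least 100 CPM in the higher group. For Tpm3-rs7 these shares were 43.7% and 19.5%. Between CTL2 and CTL1 Tpm3 differed by 0.049 and Tpm3-rs7 by 0.025 on the log2 scale, which at least 69.9% of the tested genes equalled or passed.

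Tpm1, whose products serve striated and smooth muscle as well as non-muscle cells, had 2320 reads in KO1 and 2231 in KO3, against 1900 in CTL1 and 1965 in CTL2. Both P1KO libraries were above both CTL libraries. Its level was 129 ± 4.59 CPM in P1KO and 109 ± 1.28 CPM in CTL (SD, n = 2 each), which gave a log2 change of 0.24 ± 0.06 (SE). The change of 1.18-fold was small beside those of Tpm3 and Tpm3-rs7, and it was called in the edgeR fit to all 4 libraries. On the same libraries limma-voom, other scalings and a minimum of 5 CPM also called the row. DESeq2 did not call it (log2 fold change 0.24), nor did edgeR without a filter on low counts (0.23). Without CTL1 or CTL2 the row was not called, with log2 fold changes of 0.22 and 0.24.

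Tpm4, a tropomyosin gene expressed mainly in non-muscle cells, had 7284 reads in KO1 and 6820 in KO3, against 7401 in CTL1 and 7232 in CTL2. KO1 lay between the CTL libraries, so the groups overlapped. Its level was 399 ± 21.7 CPM in P1KO and 413 ± 11.7 CPM in CTL (SD, n = 2 each). The log2 fold change was -0.05 ± 0.06 (SE), and it was 0.0024 without KO3 and -0.11 without KO1.

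Tpm2, best known from skeletal and smooth muscle, was the scarcest row, with 80 reads in KO1 and 80 in KO3, against 112 in CTL1 and 132 in CTL2. Both P1KO libraries were below both CTL libraries. Its level was 4.52 ± 0.0362 CPM in P1KO and 6.88 ± 0.715 CPM in CTL (SD, n = 2 each). The log2 fold change was -0.61 ± 0.19 (SE), which was not called in the fit to all 4 libraries. With a minimum of 5 CPM in 2 libraries the row was called, as were 25.9% of all genes tested there. It passed that minimum only through CTL1 and CTL2, the group where it was higher, so that call carries no weight. The log2 fold change was -0.71 without CTL1, -0.50 without CTL2, -0.61 without KO1 and -0.60 without KO3.

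**Figure D3:**
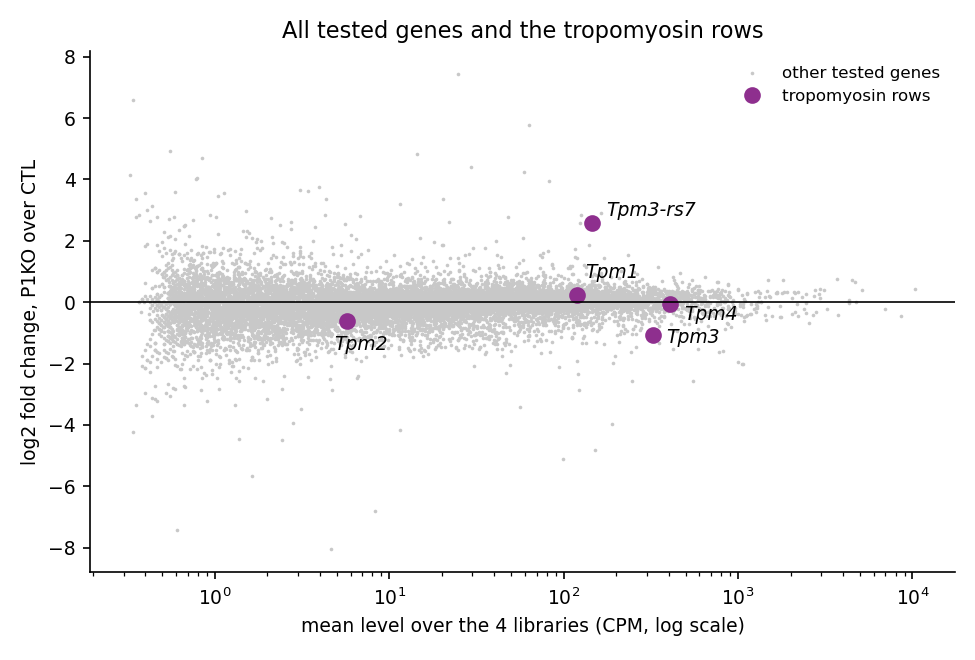
Log2 fold change of P1KO over CTL against the mean level over the 4 libraries in CPM on a log scale, for the 15510 tested genes in grey and the tropomyosin rows in purple. Tpm3-rs7 at 2.59 and Tpm3 at -1.06 lie away from the bulk of genes of like level, and Tpm1 and Tpm4 lie close to 0.

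All 5 rows together held 18146 reads in KO1 and 16957 in KO3, against 17761 in CTL1 and 18103 in CTL2. The highest and the lowest total were both P1KO libraries, so the groups overlapped. In CPM the family total was 992 ± 55.4 in P1KO and 1013 ± 1.42 in CTL (SD, n = 2 each). Tpm3 alone made up 24.0% and 18.4% of the family's reads in KO1 and KO3, against 43.0% and 44.4% in CTL1 and CTL2. Counted with Tpm3-rs7 it made up 46.6% and 46.2% in KO1 and KO3, against 47.0% and 48.5% in CTL1 and CTL2. Tpm4 held 40.1% and 40.2% of the reads in KO1 and KO3, against 41.7% and 39.9% in CTL1 and CTL2. Tpm1 held 12.8% and 13.2% in KO1 and KO3, against 10.7% and 10.9% in CTL1 and CTL2. The rare Tpm2 held 0.44% and 0.47% in KO1 and KO3, against 0.63% and 0.73% in CTL1 and CTL2. The joint share of Tpm3 and Tpm3-rs7 was thus slightly lower in both P1KO libraries than in both CTL libraries, while the shares of Tpm4 overlapped. The gap between KO1 at 46.6% and CTL1 at 47.0% was small and was not tested against counting error.

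**Figure D4:**
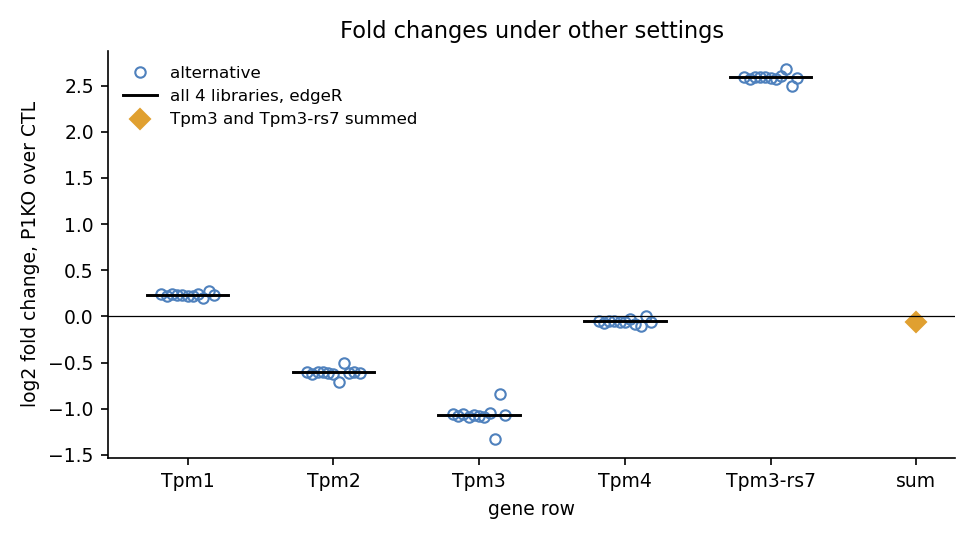
Log2 fold change of P1KO over CTL for each tropomyosin row. Lines give the edgeR fit to all 4 libraries, open circles the 11 other settings, among them each library left out, and the diamond the sum of Tpm3 and Tpm3-rs7 fitted as 1 row. Tpm3-rs7 stayed between 2.50 and 2.68 and Tpm3 between -1.33 and -0.84 over these settings, while the sum was at -0.065.

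The rows whose profile over the 4 libraries was most like that of Tpm3-rs7 were looked up among 11264 other genes with at least 5 CPM in the higher group, by the Euclidean distance between centred log2 CPM values. The closest were ENSMUSG00000116581, at a distance of 0.16, and ENSMUSG00000037872, also at 0.16, where a flat profile would lie at 2.59. ENSMUSG00000116581 had 592 and 741 reads in KO1 and KO3, against 115 and 105 in CTL1 and CTL2. ENSMUSG00000037872 had 3821 and 3735 reads in KO1 and KO3, against 625 and 650 in CTL1 and CTL2. Both genes were thus about as much higher in P1KO as Tpm3-rs7, with log2 fold changes of 2.60 and 2.57. A match over 4 libraries in 2 groups rests mainly on the size of the difference between the groups, and the identifiers are not paired with symbols in the sources used here.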

How the data were processed

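The authors deposited 1 series-wide table of unnormalised read counts per Ensembl gene in 4 columns, all of which were used. The build was mm10 and reads were processed with HISAT2 2.0.5, featureCounts 1.5.0-p3, fastp and CASAVA, per the submitters' processing notes. The annotation release, the strand setting and the handling of multi-mapping reads were not given in the sources used here. Column KO3 was placed in P1KO by its name, since its number is in no sample title. Per the labels' protocols, libraries were made with a NEBNext Ultra kit.

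P1KO was compared with CTL over all genes with edgeR 4.0.16 in R 4.3.3 (filterByExpr, TMM, quasi-likelihood F-test, Benjamini-Hochberg adjustment, threshold 0.05). Standard errors are the log2 fold change divided by the square root of F. Log2 CPM values used a prior count of 2. The fit was tested on simulated data. Alternatives used DESeq2 1.42.0 and limma 3.58.1, other filters and scalings, and left-out libraries. The rows and lists were chosen with earlier results of these data known. Text names the 5 rows and the most alike profiles. Of the 164 genes in 17 lists of actin regulators and cell type markers, 0 could be paired with a row of the table, so these lists are not analysed here.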

Additional observations from a re-analysis of the deposited data

How the results depend on the processing

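The log2 fold changes of Tpm1, Tpm2, Tpm3 and Tpm3-rs7 kept their direction in 11 alternative settings, and that of Tpm4, which was not called in the fit to all libraries, ran from -0.11 to 0.0024. Tpm3-rs7 ranged from 2.50 to 2.68 when 1 library was left out. With Tpm3 and Tpm3-rs7 added as 1 row the value was -0.065 in place of 2.59 and -1.06, which follows from the sum itself. The share of reads on Tpm3-rs7 differed by 40.1 to 51.5 percentage points with 1 library left out. The number of genes called over the whole table was 3027, and it was 1633 without a filter on low counts, 152 with the CTL libraries summed, and 120 to 5391 with 1 library left out. A lone library was assumed to vary like the other group. Of the 5 rows, 2 were called by DESeq2, which called 15.8% of all genes it tested, 2 without a filter (6.24% of all), 1 with the CTL libraries summed (0.98% of all) and 4 with a minimum of 5 CPM (25.9% of all). No paired analysis was possible because no sample title carries the number 3 of the second P1KO column. Tpm2, with 80 to 132 reads, is limited most by depth, and it passed the minimum of 5 CPM only through the CTL libraries.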
